A study of Oryza sativa with 3 samples.

Results

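The miRNA profile of Ov199, a rice line that overexpresses OsNAR2.1, was set against that of its wild type, Nipponbare (NP), with 1 small RNA library per line. Ov199 is a single transgenic line of Oryza sativa ssp. japonica that carries the OsNAR2.1 coding sequence behind the Ubi (ubiquitin) promoter, which is active in most tissues (pUbi-OsNAR2.1), and NP carries no transgene. Both lines were grown in field plots in Nanjing with urea as the nitrogen fertilizer and with the same phosphate and potassium supply. Plants were sampled in bloom, RNA of their leaves, flowers and stems was pooled for each library, and the share of each organ in a pool is not given in the sources used here. The third library of the series, of an OsNAR2.1 RNAi line, is quoted only beside single values.

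The members are the known miRNA precursors, the hairpin transcripts from which miRNAs are cut, that had 20 or more reads in Ov199 or in NP. These were 215 of the 485 known precursors read in at least 1 of these libraries, and of 516 known precursors read anywhere in the series. Reads were also summed over each numbered family, which gave 91 families of 259. A sequence that aligned at several precursors was counted at each of them, so related precursors share reads and are not separate measurements. Of the reads, 49.2% in Ov199 and 47.2% in NP had more than 1 place.

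OsNAR2.1 is the partner protein of the high-affinity nitrate transporters of rice, and its mRNA is not measured by these libraries, so the line labels could not be checked against it. Plant miRNAs are cut from a hairpin by a DICER-LIKE enzyme as a duplex with a 5p and a 3p strand, of which one is usually loaded into an ARGONAUTE protein and guides cleavage or repression of matching mRNAs. Canonical miRNAs are mostly 21 nt long and made by DCL1, while rice also holds many long miRNAs of 24 nt made by DCL3, which can direct DNA methylation. Many conserved families adjust growth to nutrients: miR399 and miR827 act in phosphate supply, miR395 in sulfate supply, miR397, miR398, miR408 and miR528 in copper supply, and miR169 and miR393 respond to nitrogen in several plants.

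The sequences on which the results turn are shown from 5′ to 3′ as they were read, as DNA letters, with the seed (bases 2 to 8) in capitals. The first set holds the miR156 sequences, with 5′ ends 1 base apart and therefore shifted seeds, and the relatives miR529a and miR535, which also direct cleavage of SPL mRNAs.
miR156, 20 nt: tGACAGAAgagagtgagcac
miR156, 21 nt: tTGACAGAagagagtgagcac
miR156f-3p: gCTCACTTctctttctgtcagc
miR529a: aGAAGAGAgagagtacagcct
miR535-5p: tGACAACGagagagagcacgc
The second set holds the leading sequences of precursors that were higher in Ov199, with both strands where both were read.
miR530-5p: tGCATTTGcacctgcacctac
miR530-3p: aGGTGCAGaggcagatgcaac
miR3980a-5p: aTCGACGGcctcagtcagggg
miR3980a-3p: cCTGGCCGaggccgtcgattc
miR1883a, 21 nt: aCCTGTGAcgggccgagaatg
miR1883a, 24 nt: tGTGACGGgccgagaatggaaccc
miR1428g: aATTCACAggccctatcttgt
MIR169i, 23 nt: tGGTGATAagggtgtagctctgg
miR169i-3p: gGCAGTCTccttggctagt
miR169i-5p: tAGCCAAGgatgacttgcct
The third set holds the leading sequences of precursors that were lower in Ov199, with the 26 nt form of miR5083 beside its 21 nt form. The read shown for miR5795 has a recorded mismatch within the capitals, so they are not the seed of the known precursor.
miR1882e: gAAATGATcttggacgtaatctag
miR5795: aGTGGGATactgatgtcgaggtcg
miR5083, 21 nt: cCAATGGAtccttctgagcct
miR5083, 26 nt: aGAAACCAatggatccttctgagcct
miR399j, 21 nt: cTGCCAAAggagagttgccct
miR399j, 20 nt: tGCCAAAGgagagttgccct
miR397b: tTGAGTGCagcgttgatgaacc
The last set holds sequences whose form or arm differed between the libraries.
miR168a, 24 nt: tCGCTTGGtgcagatcgggacccg
miR168a, 21 nt: tCGCTTGGtgcagatcgggac
miR444b, 22 nt: gTGCAGTTgttgtctcaagctt
miR444b, 21 nt: tGCAGTTGttgtctcaagctt
miR166b-3p: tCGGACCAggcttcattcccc
miR166c-3p: tTCGGACCaggcttcattccc
miR166b-5p: gGAATGTTgtctggctcgggg
miR171b-5p: gGATATTGgggcggttcaatc
miR171b-3p: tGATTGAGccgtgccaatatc
miR167a-5p: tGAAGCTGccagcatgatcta
miR167a-3p: aTCATGCAtgacagcctcatt
Shifts of 1 base changed the seed between the paired forms of miR156, miR444b, miR399j and miR166, while the 24 nt and 21 nt forms of miR168a share both their start and their seed.

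The libraries held 94154 aligned reads in Ov199 and 49341 in NP, each distinct sequence counted a single time, and 73.6% and 72.2% of these were at known precursors. A scaled count is the number of reads per 1000000 of these aligned reads, so that 1 read was worth 10.6 in Ov199 and 20.3 in NP, and a count of 0 allows up to 3 reads, or 31.9 and 60.8. The log2 ratio is that of Ov199 over NP on the scaled count + 10 scale, which understates the change of low precursors. A fold is the plain ratio of scaled counts with its exact 95% interval, which covers counting error only, since the reads carry no molecular identifiers. The reads of a precursor or family were set against all other reads by a two-sided Fisher's exact test, with p-values adjusted by the Benjamini-Hochberg method over all precursors or families with a read. It compares 2 libraries and not 2 lines, because no spread between plants could be estimated. A member is called changed here where its log2 ratio was past 2-fold and its adjusted p under 0.05. In pooled organs, fewer cells of a type and less RNA per cell cannot be told apart.

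At precursor level, 27 of the 215 known precursors were past 2-fold higher in Ov199 and 11 past 2-fold lower. Over the 304 known and predicted precursors kept, 12.5% were past 2-fold higher and 6.58% past 2-fold lower. With the adjusted p as well, 18 known precursors rose and 11 fell, against 7.57% and 6.58% of all those kept. The 18 that rose form 11 groups once precursors that share 80% or more of their reads count as 1, because 10 of them belong to the miR156 family and share its mature sequences. Conserved precursors, 91 of the 215 kept, made up 12 of the 18 that rose, or 6 of the 11 groups, and 1 of the 11 that fell. All 6 groups belong to miR156 or miR169, and the miR156 groups still have reads in common. They are therefore not separate units, and their number says little about conserved families as a class.

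At family level, 7 of the 91 families were past 2-fold higher, or 7.69%, and 5 past 2-fold lower, or 5.49%. Of these, miR530, miR1883, miR1428 and miR3980 rose (4.4%), and miR1882, miR5795, miR5083, miR1436 and miR5145 fell (5.49%) with adjusted p-values under 0.05. Families with an adjusted p under 0.05 at any fold numbered 18 higher (19.8%) and 19 lower (20.9%), so most of the differences that exceeded counting error were smaller than 2-fold. The families listed here as conserved among land plants (25 listed, 21 kept) had a median log2 ratio of 0.30, with 16 above 0, and none was past 2-fold. The 4 kept of 7 families listed as monocot had a median of 0.27, the other 66 families one of -0.13, and all 91 families one of 0.04. Both lists were set by family number, and the presence of each family in other plants was not checked. The median of the other families was not stable in sign, with 0.00 under TMM scaling, 0.12 under scaling to adapter-trimmed reads and 0.01 with exact alignments only. TMM and adapter-trimmed scaling moved the median of all families by 0.12 and 0.24. The gap between the conserved and the other median was 0.43 under both. A scaling moves all log2 ratios by nearly the same amount, so it cannot test this gap. With exact alignments the gap was 0.27, with a minimum of 50 reads 0.40 and with reads of 20 to 24 nt 0.49. By share of all aligned reads, conserved families held 50.9% in Ov199 (95% Wilson interval, 50.6 to 51.2%) against 46.6% in NP (46.1 to 47.0%), and the other families 17.9% against 21.9%. Most of the difference in the other families lies in miR5083 alone, with scaled counts of 18799 in Ov199 and 46614 in NP. It is therefore not a difference of the class as a whole.

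**Figure D1:**
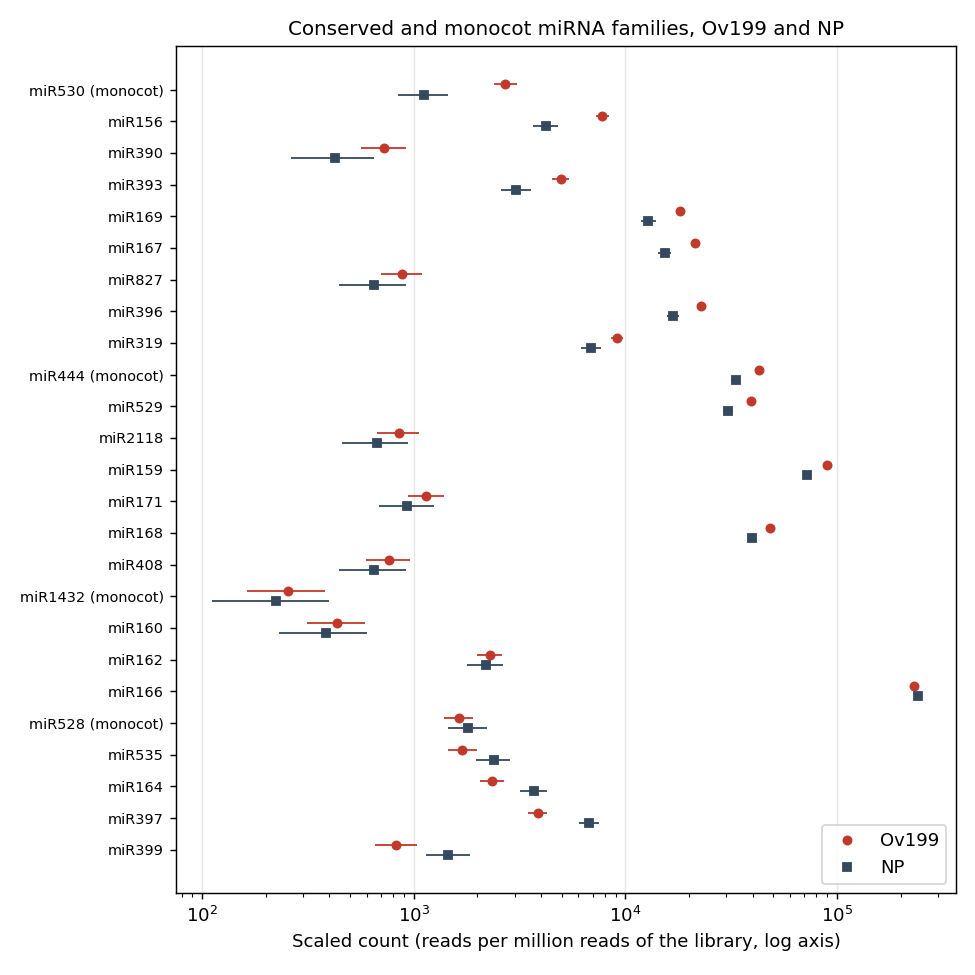
Scaled counts (reads per 1000000 aligned reads, log axis) of the 21 conserved and 4 monocot families kept, for Ov199 (red circles) and NP (dark squares), with exact 95% Poisson intervals for counting error and families ordered by log2 ratio. miR530 and miR156 stand at the top with folds of 2.43 and 1.85, and miR397 and miR399 at the bottom with 0.573 and 0.568.

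miR156 directs cleavage of SPL transcription factor mRNAs, which control phase change, tillering and panicle branching in rice. The family had 733 reads in Ov199 against 208 in NP, or scaled counts of 7785 and 4216, a fold of 1.85 (1.58 to 2.16, exact adjusted p = 8.08e-15). The precursors differed in how far they rose. MIR156a, MIR156b, MIR156e and MIR156i had 235 to 244 reads in Ov199 and 33 to 38 in NP, with log2 ratios of 1.74 to 1.90, and MIR156c and MIR156g had 256 and 252 reads against 41. MIR156d and MIR156j had log2 ratios of 1.10 and 1.23, and MIR156f and MIR156h, with 597 reads against 151, one of 1.05. These last precursors also hold the longer mature form, and the forms themselves differed: the 20 nt form was read 139 times in Ov199 and 21 times in NP, a fold of 3.47 (2.18 to 5.78), and the 21 nt form 239 and 71 times, a fold of 1.76 (1.35 to 2.33). MIR156l, with 22 reads against 21, had a log2 ratio of -0.84 that did not pass the test (exact adjusted p = 0.198). Since these precursors share reads, the family value is the one without double counting, and with reads split over their places MIR156a and MIR156e kept the call while the other 8 lost it.

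The relatives of miR156 did not move by the same amount. miR529 had 3679 reads in Ov199 against 1507 in NP, a fold of 1.28 (1.20 to 1.36, exact adjusted p = 3.89e-15), nearly all of them at MIR529a. The main miR529a sequence was read 2974 and 1227 times. miR535 lay on the other side, with 160 reads against 118 and a fold of 0.711 (0.557 to 0.909, exact adjusted p = 0.0339), and its 5p sequence was read 52 and 31 times. Of the 3 SPL-targeting families, 2 were higher and 1 lower with adjusted p-values under 0.05, and 0 were past 2-fold.

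miR169 directs cleavage of NF-YA transcription factor mRNAs. The family was read 1715 times in Ov199 and 634 times in NP, a fold of 1.42 (1.29 to 1.56, exact adjusted p = 2.23e-13). MIR169a, with 1426 reads against 546, gave most of that, at a fold of 1.37. MIR169i rose much further, to 132 reads in Ov199 against 14 in NP, a fold of 4.94 (2.84 to 9.29, exact adjusted p = 1.20e-10). Its leading read was not the mature miR169 but a 23 nt sequence at positions 26 to 48 of the precursor, just before the mature sequence, which starts at position 49. This 23 nt sequence aligned at a single precursor and was read 50 times in Ov199 and 3 times in NP, a fold of 8.73 (2.82 to 43.8). The 3p read of 19 nt, shared with MIR169k, was found 26 and 2 times, and the mature 5p sequence 5 times and 1 time. MIR169k rose to 57 reads against 10 (log2 ratio 1.53, exact adjusted p = 0.00466), but MIR169k lost the call with reads split over places (1.17) and with reads of 20 to 24 nt (0.37). MIR169f, which the study named on these samples, had 37 reads against 11, a fold of 1.76 with an interval of 0.880 to 3.83 that includes 1.

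Among the families that act on auxin signalling and root growth, 2 of 5 were higher and 1 lower with adjusted p-values under 0.05, and 0 were past 2-fold. miR393, which directs cleavage of mRNAs of the auxin receptors TIR1 and AFB, had 467 reads in Ov199 against 151 in NP, a fold of 1.62 (exact adjusted p = 1.54e-06), and its precursors MIR393a and MIR393b had folds of 1.65 and 1.61. miR167, which acts on ARF6 and ARF8 type auxin response factors, had 2013 reads against 759, a fold of 1.39 (1.28 to 1.51), and 8 of its 10 precursors kept had folds between 1.26 and 1.75. MIR167e and MIR167i stood apart from these at 1.08 and 1.09. miR390, which starts the trans-acting siRNA pathway from TAS3, had 68 reads against 21, a fold of 1.70 that did not pass after adjustment (exact adjusted p = 0.145). miR160, the regulator of ARF10, ARF16 and ARF17 type factors, had 41 reads against 19 (exact adjusted p = 0.983).

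miR164, which acts on NAC transcription factors of the CUC type, was the member of this list that was lower, with 221 reads in Ov199 against 183 in NP and a fold of 0.633 (0.518 to 0.774, exact adjusted p = 7.34e-05). All of its 4 kept precursors had folds below 1, from 0.552 at MIR164d to 0.769 at MIR164a, and MIR164f alone passed the test. At MIR164f, the most frequent read lay 7 bases before the mature start and overlapped it. It was read 94 times in Ov199 and 93 times in NP, a fold of 0.530 (0.393 to 0.713), and the mature sequence was read 33 and 23 times, a fold of 0.752 with an interval of 0.428 to 1.34.

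The families of leaf and organ growth were higher in 3 of the 4 kept and lower in 1, with adjusted p-values under 0.05 and none past 2-fold. miR396, which acts on growth-regulating factors, had 2135 reads in Ov199 against 829 in NP, a fold of 1.35 (1.25 to 1.46). The most frequent read length of miR396 was 17 nt, and 21 nt reads made up 32.7% in Ov199 and 29.8% in NP. Its fold is therefore not that of the 21 nt form alone. miR159, which acts on GAMYB factors, had 8430 against 3578, a fold of 1.23 (1.19 to 1.28), and miR319, which acts on TCP factors, 862 against 340, a fold of 1.33 (1.17 to 1.51). miR166, which represses HD-ZIP III leaf polarity genes, was the most frequent family, with 21846 reads in Ov199 against 11973 in NP. Its fold of 0.956 (0.935 to 0.978, exact adjusted p = 7.72e-05) was small, and its precursors ran from 0.757 at MIR166h to 1.34 at MIR166i. The mature forms of miR166 went different ways as well: the form of MIR166b was read 3651 and 2307 times, a fold of 0.829 (0.787 to 0.874), and the form of MIR166c, 1 base further 5′, 7189 and 3657 times, a fold of 1.03 (0.990 to 1.07). miR172, the regulator of AP2 factors in flowering, was below the minimum with 13 reads against 9.

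miR444, a monocot family that acts on MADS-box genes and has been tied to nitrate signalling in rice roots, had 4025 reads in Ov199 against 1645 in NP, a fold of 1.28 (1.21 to 1.36, exact adjusted p = 7.32e-17). This came from MIR444b and MIR444c, which share most of their reads and had folds of 1.34 and 1.32. MIR444a, MIR444d and MIR444e had folds of 0.730, 0.718 and 0.822, of which that of MIR444d had an adjusted p under 0.05 (exact adjusted p = 0.0456). The leading form at MIR444b was the 22 nt one in Ov199, with 1317 reads against 417 in NP and a fold of 1.66 (1.48 to 1.85), and the 21 nt one in NP, with scaled counts of 13351 in Ov199 against 10843 in NP and a fold of 1.23 (1.11 to 1.36).

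Families that act on the silencing machinery itself were within 2-fold. miR168 represses AGO1, the main miRNA effector, and had 4521 reads in Ov199 against 1962 in NP, a fold of 1.21 (1.14 to 1.27, exact adjusted p = 9.93e-12). Its forms differed, since the 21 nt form was read 538 times in Ov199 and 181 times in NP, a fold of 1.56 (1.31 to 1.85), and the 24 nt form with the same 5′ end 1085 and 572 times, a fold of 0.994 (0.897 to 1.10). miR162, which acts on DCL1 mRNA, had 216 reads against 108 (exact adjusted p = 0.933), and miR820, which acts on the DNA methyltransferase gene OsDRM2, 801 against 469 (exact adjusted p = 0.207).

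Nutrient families gave a mixed picture. Of the copper families, miR397, which acts on laccase mRNAs, was lower with 364 reads in Ov199 against 333 in NP, a fold of 0.573 (0.492 to 0.667, exact adjusted p = 6.56e-12), while miR408 had 72 reads against 32 and miR528 154 against 89, both with intervals that include 1. miR398 was below the minimum with 11 reads against 4. Among the phosphate and sulfate families, miR399, which represses the phosphate regulator PHO2, had 78 reads in Ov199 against 72 in NP, a fold of 0.568 (0.407 to 0.793, exact adjusted p = 0.00657). MIR399j fell past 2-fold, to 54 reads against 60 (log2 ratio -1.07, exact adjusted p = 8.34e-04), a call that MIR399j lost with a pseudocount of 100 (-0.97), TMM (-0.95) and adapter-trimmed totals (-0.83). Its forms with shifted starts differed. The 21 nt form was read 14 and 23 times, a fold of 0.319 (0.152 to 0.647), and the 20 nt form 26 and 14 times, a fold of 0.973 (0.490 to 2.02). miR827, which acts on SPX-MFS phosphate transporters, had 83 reads against 32 with an interval of 0.894 to 2.11, and miR395 was below the minimum with 18 against 14.

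miR171, which acts on GRAS factors of the HAM type, had 108 reads in Ov199 against 46 in NP, a fold of 1.23 with an interval of 0.864 to 1.78. Families known from anthers and panicles (miR2118, miR2275, miR529 and miR172) served as a readout of the flowers in the pools. miR2118, which triggers phased siRNAs in anthers, had 80 reads in Ov199 against 33 in NP, a fold of 1.27 (0.837 to 1.97). miR2275, which acts in the same pathway, had 18 raw reads against 19, and miR172 had 13 against 9. The libraries held 94154 aligned reads in Ov199 and 49341 in NP. Relative to this depth, miR2275 and miR172 were lower in Ov199, on few reads, while miR2118 and miR529 were higher. Of these 4 families, 2 were kept and miR529 alone had an adjusted p under 0.05, and the part of organ shares in the results was not tested.

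Among the kept families of the monocot list, miR530, a regulator of grain size and panicle branching in rice, rose most. It had 255 reads in Ov199 against 55 in NP, a fold of 2.43 (1.81 to 3.31, exact adjusted p = 1.62e-09). Both strands of its duplex showed the rise, since miR530-5p had scaled counts of 1742 in Ov199 and 486 in NP, a fold of 3.58 (2.32 to 5.75), and miR530-3p was read 26 and 2 times, a fold of 6.81 (1.71 to 59.2). miR1432, another family of that list, had 24 reads in Ov199 against 11 in NP (exact adjusted p = 1). Among the families outside both lists, miR3980 was read 80 times in Ov199 and 0 times in NP. Taking the 3 reads that a count of 0 allows, MIR3980a and MIR3980b were at least 13.8-fold and 14.0-fold higher in Ov199, and they share their reads. Here too both strands were present in Ov199, with 26 reads of the 5p form and 9 of the 3p form.

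miR1883 rose to 220 reads in Ov199 against 56 in NP, a fold of 2.06 (1.53 to 2.81, exact adjusted p = 4.38e-06), with reads of both 20 to 22 nt (93 in Ov199, 22 in NP) and 23 to 25 nt (110 and 32). MIR1883a carried the change with 213 reads against 46, and MIR1883b had 94 against 35 with a log2 ratio of 0.49 that did not pass. miR1428 had 66 reads against 15, a fold of 2.31 (1.30 to 4.35, exact adjusted p = 0.0166). At MIR1428f, 30 of 47 reads in Ov199 and 5 of 7 in NP were a single sequence of 15 nt. At MIR1428g, the 21 nt form was read 6 and 0 times, so the call there rests on 21 reads against 2. With reads split over places or limited to 20 to 24 nt, both MIR1428f and MIR1428g lost the call, and MIR1428g also with exact alignments.

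Among the precursors that fell, MIR1882e had 0 reads in Ov199 against 65 in NP, so that it was at least 41.3-fold lower, and the RNAi library held 216. Its leading sequence of 24 nt, at positions 113 to 136 of the precursor, was read 0 and 17 times. MIR5795 fell to 3 reads in Ov199 against 181 in NP, a fold of 0.00869 (0.00177 to 0.0258, exact adjusted p = 6.85e-77), and had 134 in the RNAi library. Of its reads, 33.3% of the 3 in Ov199 and 1.66% in NP matched the precursor without a recorded difference. The leading sequence, with 1 read in Ov199 against 115 in NP, carries a recorded mismatch to the known precursor, which lies within its seed. With exact alignments the call ended, at a log2 ratio of -1.90 for MIR5795 (exact adjusted p = 0.367).

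MIR5083 was the most frequent of the precursors that fell, with 1770 reads in Ov199 against 2300 in NP and a fold of 0.403 (0.379 to 0.429, exact adjusted p = 5.67e-185). Its short and long reads differed. The 21 nt form was read 562 and 283 times, a fold of 1.04 (0.901 to 1.20), while the 26 nt form, which ends at the same position 211 of the precursor, was read 63 and 182 times, a fold of 0.181 (0.134 to 0.243). Reads that end at position 211 made up 89.0% in Ov199 and 75.3% in NP. Reads of 25 nt or more made up 14.2% of MIR5083 reads in Ov199 (12.7 to 15.9%) and 45.0% in NP (43.0 to 47.1%), with 29.8% in the RNAi library. With reads of 20 to 24 nt alone, the log2 ratio of MIR5083 was -0.78, within 2-fold.

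The other precursors that fell were less frequent. MIR815b and MIR815c, MIR818b and MIR812r belong to the block of repeat-derived families around miR812, several of which arose from miniature inverted-repeat transposable elements. MIR815c had 27 reads in Ov199 against 36 in NP (log2 ratio -1.32), MIR818b 31 against 41 (-1.31), MIR812r 61 against 73 (-1.18) and MIR815b 31 against 33, a fold of 0.492. Few of these reads matched without a recorded difference, at 9.68% in Ov199 and 17.1% in NP for MIR818b and 19.7% and 20.5% for MIR812r. Of the 8 kept families of that block, 7 had log2 ratios below 0, with a median of -0.30, 3 were lower with adjusted p-values under 0.05, and miR817 was the exception at 1.02 without passing the test. miR812 itself had 1076 reads in Ov199 against 737 in NP, a fold of 0.765 (0.696 to 0.841, exact adjusted p = 3.88e-07). MIR1436, MIR5145 and MIR1862b fell to 20, 21 and 49 reads in Ov199, against 25, 25 and 53 in NP. At these low counts the call depends on the setting, since MIR1436 and MIR5145 kept it in 3 of 10 alternatives each, MIR1862b in 3 and MIR815b in 2. MIR812r kept it in 7, with -0.30 without single reads, MIR818b in 8 and MIR815c in 9.

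**Figure D2:**
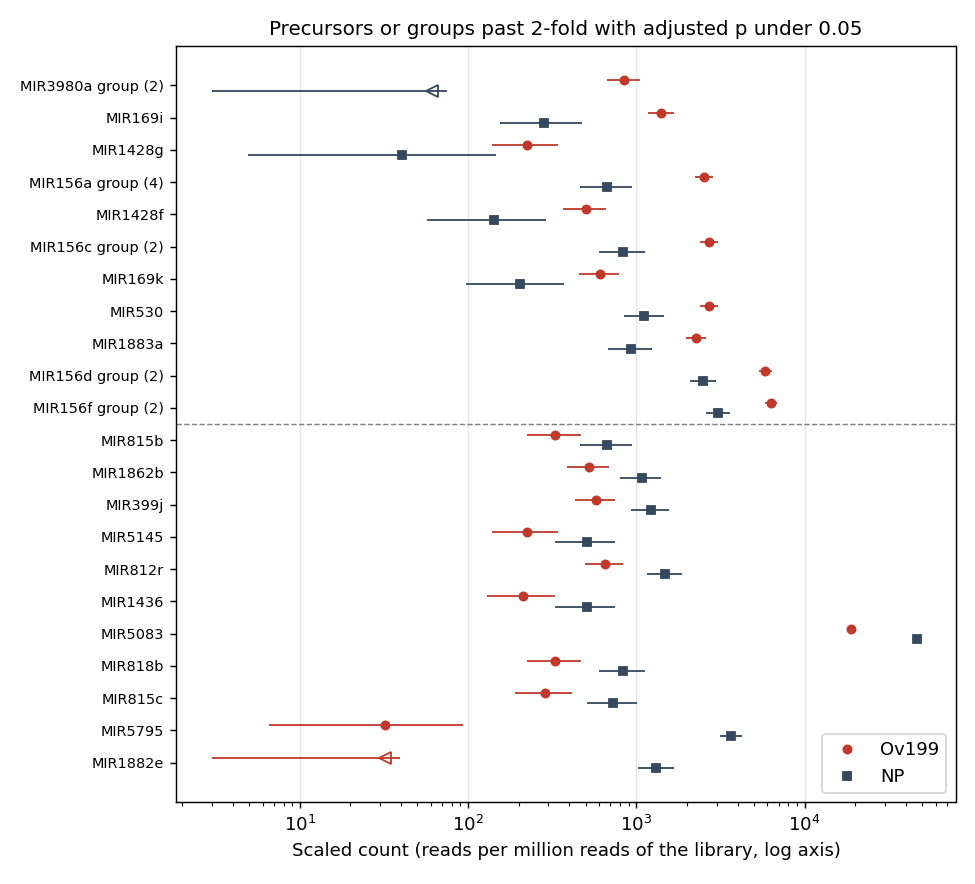
Scaled counts (log axis) of the 22 precursors or groups of precursors called changed, Ov199 as red circles and NP as dark squares, with exact 95% Poisson intervals for counting error; the 11 above the dashed line rose and the 11 below it fell. Open triangles mark the limit of 3 reads where a library had 0, which holds for MIR3980a in NP and MIR1882e in Ov199, and a number in brackets counts precursors that share their reads.

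Among the other most frequent families outside the lists, miR1876 had 3399 reads in Ov199 against 1967 in NP, a fold of 0.906 (0.856 to 0.958), nearly all from 1 sequence of 24 nt. miR7695, a rice family with 961 reads against 300, was higher with a fold of 1.68 (1.47 to 1.92, exact adjusted p = 1.03e-14), and miR5794 had 442 against 150, a fold of 1.54. miR2863 was higher at 1.38, and miR5077, miR531 and miR5072 were at 1.08, 0.977 and 0.880. The most frequent read length of miR5077 and miR5072 was 15 nt. Reads without a recorded difference made up 0.292% of miR5077 in Ov199 and 0.2% in NP, and 11.7% and 8.80% of miR5072. miR1862 and miR818 were lower at 0.726 and 0.686, both with adjusted p-values under 0.05.

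Families were also compared by read length. In the 48 families whose most frequent length was 20 to 22 nt, the median log2 ratio was 0.24 and 31 were above 0. In the 31 families of 23 or 24 nt, all of them outside the conserved and monocot lists, the median was -0.43 and 25 were below 0, with 10 lower and 1 higher at adjusted p-values under 0.05, beside 20.9% lower and 19.8% higher over all 91 families. The 24 families of 20 to 22 nt outside those lists had a median of 0.02, and the 12 families of other lengths one of 0.43. The gap between the 20 to 22 nt and the 23 or 24 nt median was 0.68. Under other scalings it was 0.67 to 0.68, but a scaling moves all log2 ratios by nearly the same amount and cannot test the gap. With exact alignments the gap was 0.44, without single reads 0.54 and with a pseudocount of 100 it was 0.59. Minima of 10 and 50 reads gave 0.56 and 0.61, and reads of 20 to 24 nt gave 0.73. The split carries no test.

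**Figure D3:**
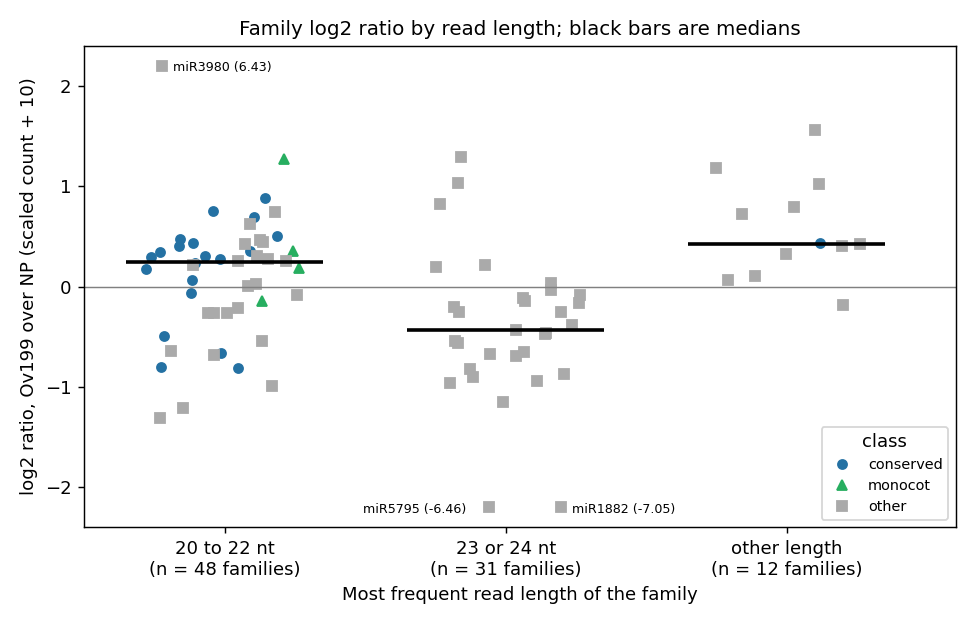
Log2 ratio of Ov199 over NP for the 91 families, grouped by their most frequent read length, with a point per family, black bars for medians and colours for class; 3 families beyond the axis are drawn at its edge with their values. The medians are 0.24 for 20 to 22 nt, -0.43 for 23 or 24 nt and 0.43 for other lengths.

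The same order was seen inside families that make both sizes, in a split that was not planned in advance. It uses reads of the same libraries, whose length shares differ as a whole, so it is not a separate observation. Of 25 families with 20 or more reads of each size in either library, 22 had a higher log2 ratio for their 20 to 22 nt reads than for their 23 to 25 nt reads, with medians of 0.33 and -0.23. In miR156, the short reads numbered 672 in Ov199 and 176 in NP (log2 ratio 1.00) and the long reads 31 and 27 (-0.72). In miR168 they were 2457 and 901 (0.51), and the long reads 1974 and 1018 (0.02). miR169, miR444 and miR1850 were the exceptions, and in miR169 the long reads, at 119 against 28, include the 23 nt sequence of MIR169i.

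Over all reads at known precursors, 21 nt reads made up 51.6% in Ov199 (95% Wilson interval, 51.3 to 52.0%) and 48.1% in NP (47.6 to 48.6%), and 24 nt reads 10.54% (10.3 to 10.8%) and 13.2% (12.8 to 13.5%). Reads of 25 nt or more made up 1.90% and 5.11%. Without MIR5083 the shares of 25 nt or more were 1.57% and 2.36%, those of 24 nt 10.6% and 13.4%, and those of 21 nt 52.1% and 50.5%, so that the 21 nt difference of 3.55 percentage points became 1.61. Within the conserved families, the 24 nt share was 3.15% in Ov199 and 3.21% in NP, with overlapping intervals. Within the other families it was 34.3% and 36.5%, and the 21 nt share 21.8% and 14.9%. The first base, which guides sorting into ARGONAUTE proteins, was U in 50.8% of reads in Ov199 and 48.8% in NP, and A in 64.8% and 68.7% of the 24 nt reads. Single families weigh on both values. Without miR166, U was the first base in 34.5% of reads in Ov199 and 31.4% in NP. Of the 24 nt reads that start with A, the miR1876 sequence gave 3097 of 4735 in Ov199 and 1780 of 3223 in NP.

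**Figure D4:**
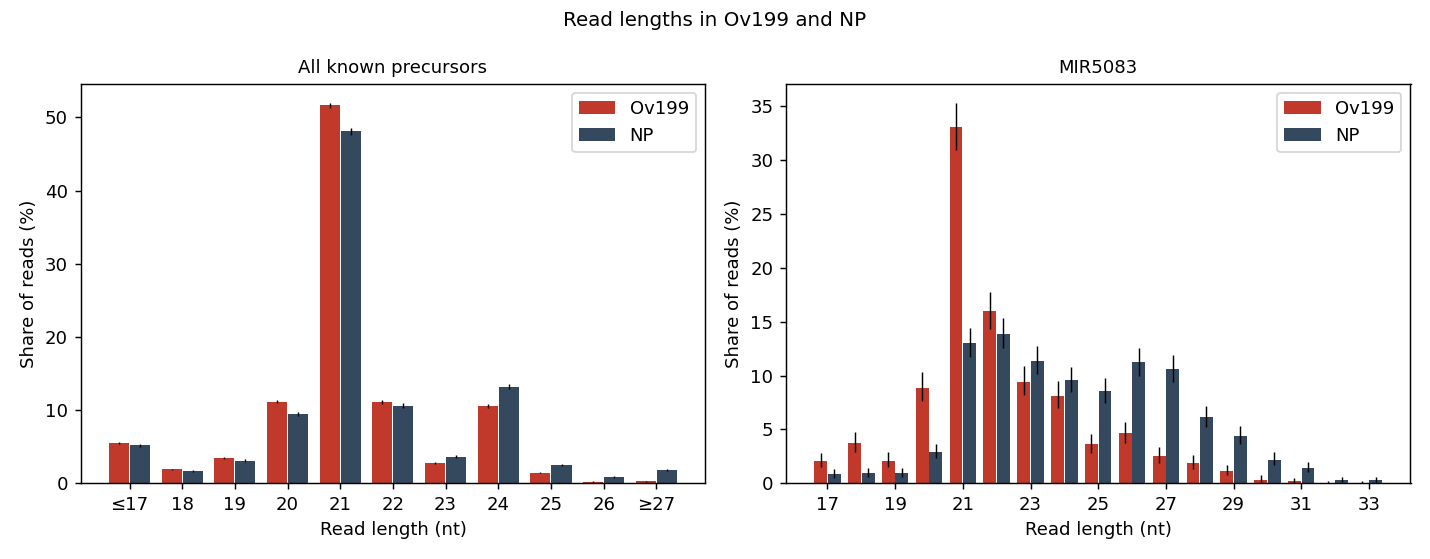
Share of reads (%) by read length (nt) in Ov199 (red, left bar) and NP (dark, right bar), with 95% Wilson intervals, at all known precursors (left panel) and at MIR5083 (right panel). At known precursors Ov199 has 51.6% of 21 nt reads against 48.1% in NP, and at MIR5083 the NP reads extend beyond 25 nt, where they make up 45.0% against 14.2% in Ov199.

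The arm from which reads came was compared within precursors, which needs no scaling between libraries. A shared read still counts at each of its precursors, so the arms of a precursor can draw on different sets of precursors. For example, miR166b-3p aligns at 6 precursors and miR166b-5p at 1. Reads were placed on the 5p or 3p arm by their position, in 324 precursors with a sequence wholly on each side, and 186 of these had 20 or more reads in either library and reads in both. Of these 186, the 5p share differed with an adjusted p under 0.05 in 11, or 5.91%, with 7 higher and 4 lower in Ov199. The 11 include MIR156f and MIR156h, which have the same counts and are not separate results. In 7 precursors the arm with more reads changed, and MIR171b was the single one of them to pass the test. At MIR171b, 35.1% of 37 reads were 5p in Ov199 (21.8 to 51.2%) against 85.0% of 20 reads in NP (64.0 to 94.8%, exact adjusted p = 0.0096). Its 5p sequence was read 9 times in Ov199 and 16 times in NP, and its 3p sequence, which aligns at 5 precursors, 9 times and 1 time.

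In miR156, whose mature strand is 5p, the 5p share was higher in Ov199. At MIR156f and MIR156h it was 93.8% against 78.1% (exact adjusted p = 4.57e-06), with 560 reads in Ov199 and 118 in NP from the 5p arm, and 37 and 33 from the 3p arm. The 3p sequence miR156f-3p was read 15 and 13 times, a fold of 0.605 with an interval of 0.268 to 1.38. MIR156d gave 93.4% against 83.1%, a call lost with exact alignments (exact adjusted p = 0.209). MIR167a showed the same direction, with 98.9% against 78.8%, and its 3p sequence was read 0 times in Ov199 and 7 times in NP. MIR167g, MIR529a and MIR1883b were also higher in 5p share, but with exact alignments MIR529a and MIR1883b lost the call (Fisher's exact adjusted p = 0.0531 and 0.280), and MIR1883b also without single reads (0.703).

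For miR166, whose mature strand is 3p, the 5p share was lower in Ov199 at the 3 precursors that passed the test, while over all 11 compared it was lower in 5 and higher in 6. It was 4.26% against 6.88% at MIR166b (exact adjusted p = 6.49e-09), 1.05% against 1.86% at MIR166c and 2.38% against 3.76% at MIR166d. The 5p sequence of MIR166b, which aligns at a single precursor, was read 292 times in Ov199 and 257 times in NP, a fold of 0.595 (0.502 to 0.707). At the miR156, miR167, miR529 and miR166 precursors that passed the test, the arm opposite to the main one held the smaller share in Ov199. Over all assigned reads, the 5p share was 35.4% in Ov199 (35.1 to 35.8%) and 31.3% in NP (30.8 to 31.8%). This pooled share also depends on which precursors were frequent, and it was not computed without single families. MIR5083, for example, had 3 of 1770 reads from the 5p arm in Ov199 and 12 of 2300 in NP.

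**Figure D5:**
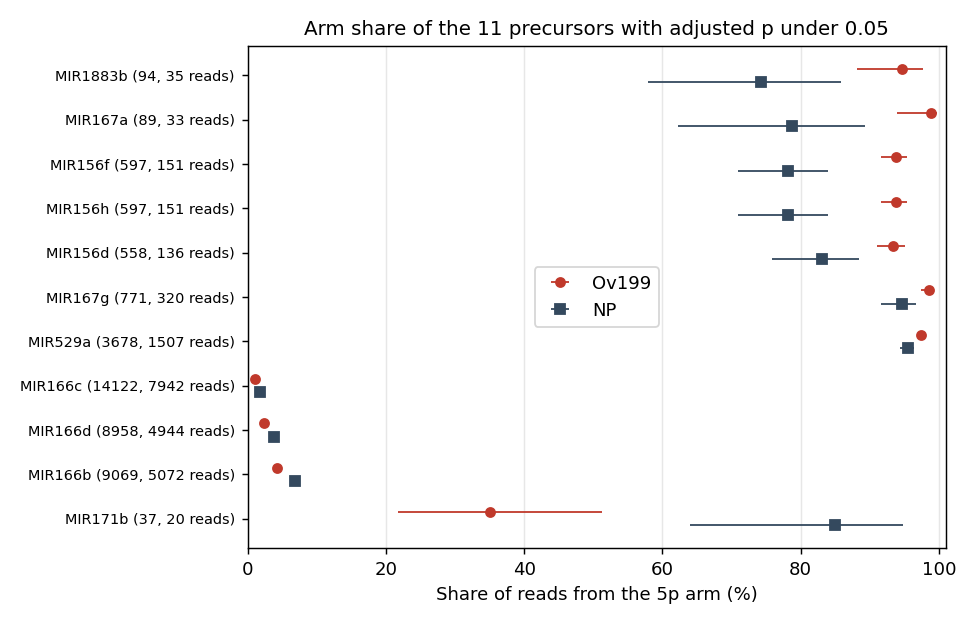
Share of reads from the 5p arm (%) with 95% Wilson intervals in Ov199 (red circles) and NP (dark squares) for the 11 precursors with an adjusted p under 0.05; brackets give the reads in Ov199 and in NP. MIR156f moved to 93.8% in Ov199 against 78.1% in NP, MIR166b to 4.26% against 6.88%, and MIR171b to 35.1% against 85.0%.

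The leading sequence, the most frequent read of a precursor, was the same in both libraries at 140 of the 212 precursors with reads in both, and at 73 of the 96 with 50 or more reads in both. Among the differing ones, MIR159b led with the 21 nt form in Ov199, at 741 reads against 267 in NP and a fold of 1.45 (1.26 to 1.68), and with the 20 nt form in NP, at 631 reads in Ov199 against 356 in NP and a fold of 0.929 (0.814 to 1.06). MIR399j and MIR399d led with the 20 nt form in Ov199 and the 21 nt form in NP.

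Of the precursors that the study named on these samples, MIR529a, MIR1882e, MIR156a, MIR1876 and MIR169f are described above. The study reported miR529a and miR1882e-3p as lower and miR169f as higher in Ov199 than in NP, by sequencing and by RT-PCR. Here MIR1882e was lower, and MIR169f was higher with an interval that includes 1. The direction of miR529a was the opposite one, since its main sequence had a fold of 1.27 (1.19 to 1.36). The reason for this difference was not tested. MIR1874 had 48 reads in Ov199 against 14 in NP, a fold of 1.80 with an interval of 0.974 to 3.53. MIR5150 fell below the minimum, with 12 reads against 10. A list of 13 families that the study names as nitrogen-linked from other work had 7 higher and 3 lower at adjusted p-values under 0.05 (19.8% and 20.9% over all families) and a median log2 ratio of 0.27, against 0.04 for all families. It overlaps the conserved families, and it cannot be taken as independent evidence. Just inside the minimum of 20 reads stood MIR2118f (20 reads against 2), MIR2880 (20 against 4) and MIR1442 (20 against 20), and just outside it MIR1846c (19 against 1), MIR2921 (19 against 3) and MIR812v (12 against 19).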

How the data were processed

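Small RNA libraries were made from total RNA by adapter ligation, PCR and selection of small RNAs, and sequenced for 36 cycles on Illumina HiSeq. The authors filtered reads for quality, trimmed adapters and searched for further precursors with miRDeep2. Each file they deposited lists distinct sequences with a raw count, the known or predicted precursors where they align, and the start and end there. The files also give length and positions, whose values were used as deposited. The aligner's settings are not given in the sources used here.

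Reads were summed per precursor and family, each sequence 1 time in each, and scaled to 1000000 aligned reads (94154 in Ov199, 49341 in NP). Precursors and families with 20 or more reads in either library were kept. Fisher's exact test, Wilson intervals and exact conditional intervals of ratios came from scipy 1.17.1 under Python 3.11.15, with numpy 2.4.6, pandas 2.3.3 and matplotlib 3.10.9. Scaling alternatives used R 4.3.3, edgeR 4.0.16 (TMM) and DESeq2 1.42.0 (size factors). Calls were tested on simulated counts drawn independently for each precursor. The simulation had no spread between plants and no reads shared between precursors, so it covers counting error only. Arms were assigned against the midpoint between the precursor start and the furthest position aligned in any library, since hairpin lengths were not used here. Only precursors with sequences wholly on each side were used, and sequences came from the deposited reads.

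The text names every conserved and monocot family that was kept, the 10 changed groups with the largest ratios in each direction (and the 11th where there was one), the precursors with the smallest arm p-values, the most frequent other families, and those the study named. The members and lists were chosen with earlier results of these data known. Alternatives were pseudocounts of 1 and 100, 4 other scalings, minima of 10 and 50 reads, exact alignments, removal of sequences with 1 read, equal splitting of reads over places, and reads of 20 to 24 nt.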

Additional observations from a re-analysis of the deposited data

How the results depend on the processing

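No paired analysis was possible because each line had 1 library, and no library could be left out. Of the 18 precursors that rose, 7 kept the call under all 10 alternatives (MIR3980a, MIR3980b, MIR169i, MIR156a, MIR156e, MIR530 and MIR1883a), and of the 11 that fell, MIR1882e did. None of these 29 log2 ratios changed sign under them. Counting a shared read at each place sets the number of calls: with reads split equally, 15 precursors were past 2-fold higher and 14 passed both criteria, against 27 and 29.

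The 11 precursors past 2-fold lower became 6 with a pseudocount of 100, 5 with adapter-trimmed totals, 22 with a minimum of 10 reads and 6 with a minimum of 50, and the 27 higher became 16 with a minimum of 50. The 12 families past 2-fold became 6 with a pseudocount of 100, 28 with a minimum of 10 and 7 with a minimum of 50. The median log2 ratio of conserved families (0.30) became 0.43 with TMM and 0.55 with adapter-trimmed totals. That of monocot families (0.27) became 0.40 with TMM, 0.51 with adapter-trimmed totals, 0.61 with exact alignments, 0.49 without single reads and 0.43 with reads of 20 to 24 nt. That of the other families (-0.13) changed sign to 0.000325 with TMM, 0.117 with adapter-trimmed totals and 0.0131 with exact alignments. The median of 20 to 22 nt families (0.24) became 0.37 with TMM and 0.48 with adapter-trimmed totals. That of 23 or 24 nt families (-0.43) became -0.31 with TMM, -0.19 with adapter-trimmed totals, -0.32 with a minimum of 50, -0.21 with exact alignments and -0.22 without single reads. TMM and adapter-trimmed totals moved the median of all known precursors by 0.13 and 0.24.

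The Ov199 minus NP difference in the 21 nt share, 3.55 percentage points, became 2.54 with exact alignments, 2.84 without single reads, 1.36 over distinct sequences (interval -0.37 to 3.09), 6.10 without MIR166 and 1.61 without MIR5083. That in the 24 nt share, -2.63, became -2.11 with exact alignments and -4.45 without MIR166. The overall 5p difference of 4.13 points ran from 3.64 to 4.31, and the 11 arm calls from 9 to 13. The medians by length and the shares without MIR5083 were chosen after seeing the data, as was leaving out families with 3 or fewer reads in a library, which gave a median of 0.05 over 88 families. The cause of these shifts was not tested. Depth limits the low precursors: at 20 reads in each library, MIR1442 had an interval of the fold from 0.268 to 1.03.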

Other observations

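A last base recorded as a mismatch to T was found in 2.51% of the known-precursor reads of Ov199, against 1.84% in NP, with 95% Wilson intervals of 2.39 to 2.63% and 1.71 to 1.99%. The RNAi library was at 1.97%. Among 32 families with 100 or more reads in both Ov199 and NP, the share was higher in Ov199 in 20 and in NP in 5. It was 14.1% of miR156 reads in Ov199 against 8.17% in NP, and 6.28% against 4.22% for miR396. For miR529 it was 0% in both. A last-base mismatch to A was found in 0.417% of reads in Ov199 and 1.09% in NP, but by family it was higher in Ov199 in 10 and in NP in 13, with medians of 0.189% and 0.0984%, and MIR5083 alone held 44 of these 289 reads in Ov199 and 238 of 387 in NP. A first-base mismatch to G was found in 1.82% of reads in Ov199 and 1.98% in NP. These shares were computed after the data were seen and have no replicate check.

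The predicted precursors showed the same order by length as the known families. The 29 with a most frequent length of 20 to 22 nt had a median log2 ratio of 0.15, with 21 above 0, and the 47 of 23 or 24 nt one of -0.28, with 31 below 0. They were read in the same libraries and scaled to the same totals.

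The RNAi library, read side by side with Ov199 and NP, is given for some of these members with no test. MIR1882e had 0, 216 and 65 reads in Ov199, RNAi and NP, the 23 nt sequence of MIR169i 50, 1 and 3, the MIR3980b reads 80, 0 and 0. As scaled counts, miR397 had 3866, 11160 and 6749, miR408 765, 3523 and 649, and miR399 828, 2742 and 1459, each highest in RNAi. Reads of MIR5083 of 25 nt or more were 14.2%, 29.8% and 45.0%.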
